A study of Mus musculus with 5 samples.

Results

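CpG methylation of 10 mouse genes of the meiotic chromosome axis, of synapsis and of meiotic recombination was followed in sperm of old and young mice. The genes are Sycp2, Sycp3, Hormad1, Hormad2, Stag3, Smc1b, Sycp1, Syce1, Spo11 and Dmc1, chosen by name from 34610 protein-coding and lncRNA genes of the RefSeq table. Each gene was taken as its mm10 RefSeq span with 1000 bp either side and divided into a start window, 1000 bp either side of the transcription start, and the remaining body. A start was annotated in the sequence table for 9 of the 10 genes. The table held no promoter for Spo11, so both of its ends are given, and its body is the span less 1000 bp inside each end, without the flanks. The samples were C57BL/6 sperm released from the cauda epididymis, the storage end of the sperm duct, and were assayed by whole-genome bisulfite sequencing. The old group comprised 2 libraries from mice aged 18 months, and the young group 3 libraries from mice aged 2 months. No genotype or treatment is given in the labels, and whether libraries stand for separate animals or for pools is not stated there. The p-values therefore describe library-to-library spread, which may be technical.

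In meiotic prophase each chromosome is folded as loops on a protein axis, and homologous chromosomes are then joined along their axes by the synaptonemal complex. Programmed DNA breaks made on the loops are repaired from the homologue, which gives crossovers. The genes for this machinery are used in spermatocytes and fetal oocytes and are silent in most other cells, and the CpG-rich promoters of many germline genes are methylated in somatic tissue. Sperm carry these genes after meiosis has ended, so the methylation described here is that of the mature gamete. Bisulfite treatment leaves methylated cytosines as C and converts unmethylated ones, so a level is the percent of reads over CpGs that were read as C.

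The 5 libraries had 67774094 to 97769462 reads over listed cytosines and 11.6 to 14.1 reads per CpG, and over all listed CpGs their methylation lay between 86.3% and 86.9%. The files list no cytosine with fewer than 5 reads. The 10 gene bodies were well covered, with 74 to 4991 reads per gene and library. The 9 start windows had 0 to 150 reads per library, and different libraries often covered different CpGs of a window. Of 164 CpGs listed in these windows in any library, 40 were listed in both ages and 7 in all 5 libraries, of which 6 lay in Hormad2 and 1 in Sycp3. Exact intervals of a share of reads cover counting error at most, because reads are not independent molecules. They are too narrow where 1 read covers several CpGs and is counted at each. Intervals of a difference between ages come from the spread between libraries in the model.

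The promoters, from 250 bases before to 50 bases after the start, show where this gap in coverage lies. The 9 promoters held 10 to 30 CpGs with a median of 18, while the median over 27024 promoters was 7. Of their 177 CpGs, 42 were listed in at least 1 library and 0 in all 5, and 105 of the 302 reads over them, 34.8%, were methylated. The sequences below are those of Sycp2, Sycp3, Hormad1 and Sycp1, the genes with the most promoter CpGs listed. They are from RefSeq on GRCm38.p6, written 5′ to 3′ on the strand of the gene, and capitals mark each CpG that at least 1 library listed.
Sycp2 promoter, chr2:178407609-178407908, minus strand: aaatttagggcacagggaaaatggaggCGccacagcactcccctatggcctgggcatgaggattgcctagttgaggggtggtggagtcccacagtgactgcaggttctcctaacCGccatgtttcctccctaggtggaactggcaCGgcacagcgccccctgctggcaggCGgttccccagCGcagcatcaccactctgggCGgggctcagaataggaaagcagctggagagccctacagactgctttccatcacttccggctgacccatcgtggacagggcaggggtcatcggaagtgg
Sycp3 promoter, chr10:88459337-88459636, plus strand: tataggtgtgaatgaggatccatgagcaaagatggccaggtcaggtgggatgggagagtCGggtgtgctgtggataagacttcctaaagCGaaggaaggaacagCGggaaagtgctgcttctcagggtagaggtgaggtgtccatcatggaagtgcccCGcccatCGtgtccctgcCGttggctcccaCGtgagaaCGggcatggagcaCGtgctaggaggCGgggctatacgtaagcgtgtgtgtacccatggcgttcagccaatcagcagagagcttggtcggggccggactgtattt
Hormad1 promoter, chr3:95559427-95559726, plus strand: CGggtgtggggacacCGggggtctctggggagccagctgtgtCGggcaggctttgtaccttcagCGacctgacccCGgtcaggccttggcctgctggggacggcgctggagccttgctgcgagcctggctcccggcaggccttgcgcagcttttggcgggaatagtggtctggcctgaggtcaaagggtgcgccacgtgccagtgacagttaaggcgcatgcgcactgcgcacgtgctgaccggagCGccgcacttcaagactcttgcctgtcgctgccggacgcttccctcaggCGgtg
Sycp1 promoter, chr3:102936051-102936350, minus strand: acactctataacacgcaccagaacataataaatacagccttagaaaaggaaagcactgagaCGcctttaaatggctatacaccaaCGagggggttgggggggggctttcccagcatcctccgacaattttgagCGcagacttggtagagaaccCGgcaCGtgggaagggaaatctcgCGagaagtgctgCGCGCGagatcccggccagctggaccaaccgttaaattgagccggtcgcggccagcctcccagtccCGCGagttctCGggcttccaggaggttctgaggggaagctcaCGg
In these sequences 6 of 10 CpGs of Sycp2, 10 of 15 of Sycp3, 7 of 24 of Hormad1 and 13 of 21 of Sycp1 were listed. Over those CpGs 15 of 38 reads were methylated in Sycp2, 50 of 102 in Sycp3, 10 of 47 in Hormad1 and 27 of 75 in Sycp1. In Stag3 0 of 10 reads were methylated, at 2 CpGs (-182 and -180 from the start) with 5 reads each in old replicate 1. The exact 95% interval reaches 30.8% if the 10 are counted as independent, and higher if the same molecules cover both CpGs. In Smc1b 1 of 15 reads was methylated, over 3 CpGs with 5 reads each in young replicate 3. The promoters of Hormad2 and Dmc1, with 16 and 18 CpGs, had none listed.

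**Figure D1:**
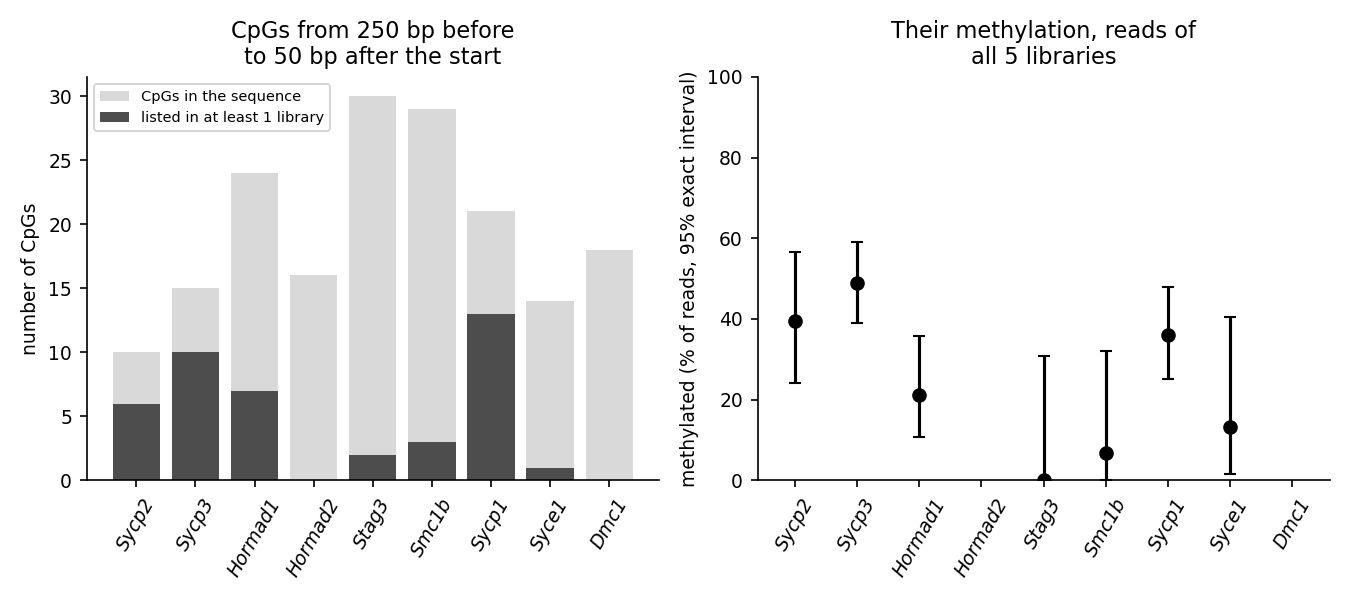
Left, number of CpGs in each promoter (light bars) and number listed in at least 1 library (dark bars). Right, percent of reads methylated over the listed CpGs, all 5 libraries together, with exact 95% intervals; Hormad2 and Dmc1 have no reads, and the levels of the other 7 genes lie between 0% and 49%.

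The letters CACGTG, the E-box, and GCGGGA, an E2F-type core, were searched on both strands of the promoters after these sequences had been seen. CACGTG was in 4 of 9 promoters (Sycp3, Hormad1, Stag3 and Sycp1), and in 7.24% of all 27024. GCGGGA was in 6 of 9, those genes with Smc1b and Dmc1, and in 20.1% of all promoters. Both were in 4 of 9 and in 2.05% of all. Each holds a CG, and among the 11882 promoters with at least 10 CpGs, the fewest of the 9, the shares were 11.1%, 40.3% and 4.41%. CpGs inside these letters were listed only in Sycp3 and Sycp1. In Sycp3 the 2 E-boxes, whose first bases are at -64 and -43 from the start, had 3 of 5 methylated reads each, all young. Each was listed in 1 library, and whether the same molecules gave both values is not known. The GCGGGA at -147 had 7 of 15 in 3 libraries. In Sycp1 the E-box at -94 had 1 of 5 methylated reads and the GCGGGA at 2 had 2 of 5, in 1 library each. Which factors bind there was not measured.

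Sperm methylation over the start windows of the axis genes was intermediate. Sycp2 encodes a protein of the axial and lateral elements, and its window (chr2:178406658-178408658) was at 70.0% and 31.9% in old libraries, on 10 and 91 reads, against 42.4% and 29.2% in young replicates 1 and 3, on 33 and 24 reads. Young replicate 2 had no reads there, and the values of the ages alternated, with an old library the highest and a young one the lowest. Sycp3, the partner of Sycp2 in these elements, had a window (chr10:88458587-88460587) at 26.5% and 44.0% in old libraries, on 102 and 25 reads, against 34.6%, 44.0% and 62.6% in young libraries, on 127, 25 and 91 reads. The groups overlapped, and young replicate 3 was the highest. Hormad1 and Hormad2 encode HORMA-domain proteins that sit on unsynapsed axes and take part in the surveillance of synapsis. Hormad1 (chr3:95558677-95560677) was at 15.2% in old replicate 1, on 33 reads, with no reads in old replicate 2. In the young libraries it was at 15.2%, 56.2% and 39.3%, on 79, 16 and 28 reads, so the single old value equalled the lowest young one to the decimal given. Hormad2 (chr11:4440082-4442082) was the best covered window, at 46.0% and 55.9% in old libraries, on 150 and 118 reads, against 65.1%, 30.6% and 47.7% in young libraries, on 43, 85 and 44 reads. Both old values lay within the young range. Most Hormad2 reads lay away from the start, with 430 at 250 to 1000 bp from it, at 48.4%. Only 10 reads, all old, lay within 250 bp, at 20%.

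The meiotic cohesin genes had the fewest reads at their starts, together with Dmc1. Stag3 encodes the meiosis-specific STAG subunit of cohesin, the ring complex that holds sister chromatids. Its window (chr5:138279509-138281509) was at 36.7% in old replicate 1, on 30 reads, with none in old replicate 2, against 40%, 20% and 20% in young libraries, on 10, 10 and 5 reads. Its annotated start lies 7995 bp inside the RefSeq span, and the start of Gpc2, on the other strand, is in the same window, so reads there belong to both genes. Smc1b encodes the meiosis-specific SMC1 subunit. Its window (chr15:85130957-85132957) was at 40% in old replicate 2, on 10 reads, against 95% in young replicate 1 and 6.67% in young replicate 3, on 20 and 15 reads, with no reads in the other libraries. This was the widest spread of the 9 windows, 88.3 points, and the young values came from different places: the 15 reads within 250 bp of the start were at 6.67%, while the 20 young reads farther away were at 95%. The start of Ribc2, on the other strand, is also in this window.

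Among the synapsis genes, Sycp1 encodes the transverse filament that bridges the axes of paired homologues. Its window (chr3:102935100-102937100) was at 40% and 24.4% in old libraries, on 15 and 45 reads, against 52.1%, 50% and 52.1% in young libraries, on 48, 10 and 96 reads. Both old values were below all 3 young ones, but old replicate 1 and young replicate 2 had under 20 reads and the window was not tested. Over the tested windows the old libraries lay all below in 8.88%. No share was taken over windows with as few reads as this one. A pseudogene, Sycp1-ps1, is annotated on chromosome 7, and whether reads from such copies add to the values of Sycp1 was not tested. Syce1 encodes a protein of the central element, where filaments from both sides meet. Its window (chr7:140786854-140788854) was the least methylated, at 8.33% and 0% in old libraries, on 12 and 32 reads, against 19.2%, 11.8% and 20% in young libraries, on 26, 34 and 5 reads. Both old values were below the young ones, in a window that was not tested for the same reason and has no share of its own to be read against. Together the old libraries had 1 methylated read of 44, 2.27% with an exact 95% interval of 0.0575% to 12%, and the young libraries were at 15.4% of 65 reads, with an interval of 7.63% to 26.5%. These reads cover different CpGs. Over the 2 CpGs listed in both ages Syce1 was at 8.33% of 12 reads in old and 12% of 25 reads in young libraries.

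The recombination genes were also below their bodies at one end. Dmc1 encodes the meiosis-specific recombinase that pairs a broken strand with the homologue. Its window (chr15:79604109-79606109) was at 28.6% and 14.8% in old libraries, on 7 and 27 reads, against 28.6% and 40% in young replicates 1 and 2, on 21 and 10 reads, with no reads in young replicate 3. Spo11 encodes the catalytic subunit that makes the programmed breaks. The 1000 bp either side of its end at position 172977379 of chromosome 2 were at 30.5% and 32.4% in old libraries, on 59 and 37 reads, against 42.1%, 33.3% and 42.2% in young libraries, on 19, 12 and 45 reads. Both old values lay below the 3 young ones, on few reads. This end was not among the windows tested, so no share over like windows stands beside it. The end at 172993576 was at 96.4% and 93.5% in old libraries and at 98.2% in young replicate 1, with no reads in the other young libraries. Over all libraries the ends stood at 35.5% of 172 reads and 95.9% of 145 reads.

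**Figure D2:**
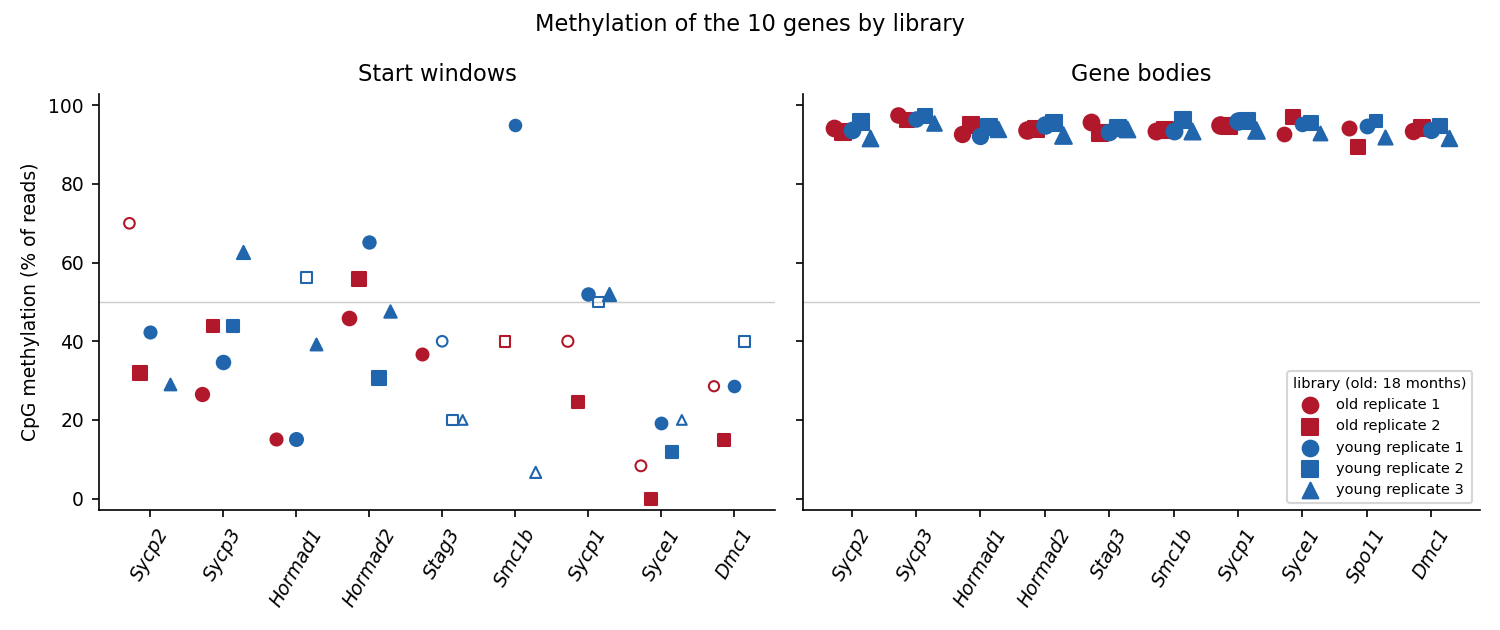
CpG methylation (percent of reads) in each library at the start windows of 9 genes (left) and the bodies of all 10 (right), with old libraries in red, left of the young ones in blue. Symbols grow with the log of the reads, and open symbols have under 20 reads. Starts spread from 0% to 95%, while every body lies between 89.3% and 97.5%.

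Start windows were less methylated than the body of the same gene in 38 of 39 pairs of gene and library. The exception was Smc1b in young replicate 1, where the body minus the start was -1.62 points. In Syce1 the gap was 73.0 to 97.1 points in the 5 libraries, in Sycp3 32.8 to 71.0 points and in Hormad2 30 to 65.0 points. With the reads of all libraries together the 9 starts were at 10.1% (Syce1) to 53.3% (Smc1b), with a median of 36.1%, and 8 of 9 were under 50% but only 1 under 20%. The value of Smc1b rests on few reads: it was 20% without young replicate 1 and 76.7% without young replicate 3. The 24311 start windows with at least 20 reads over all libraries had a median of 54.2%, with 48.0% of them under 50% and 31.0% under 20%. Among the 10775 windows whose promoter holds at least 10 CpGs, the median was 12.3%, and 89.9% were under 50% and 64.2% under 20%. The median of the 9 starts lay between these medians, as a description with no test.

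The narrower window of 500 bp either side of the start gave a lower median, though Sycp2 was higher there. In it 9 of 9 genes were under 50% and 5 under 20%, with a median of 15.4%, beside 47.3% over 19449 windows of all genes and 1.49% over 8123 of those with at least 10 promoter CpGs. Of all these windows 50.7% were under 50% and 41.0% under 20%. Of those with at least 10 promoter CpGs the shares were 94.7% and 85.5%. Syce1 was at 7.04% of 71 reads, Hormad1 at 15.4% of 117, Stag3 at 15% of 20 and Smc1b at 6.67% of 15. In Dmc1 0 of 10 reads were methylated, where the exact interval again reaches 30.8% only if the 10 are counted as independent. Sycp2, at 40.2% of 87 reads, Sycp3, at 40.4% of 166, Sycp1, at 37.6% of 85, and Hormad2, at 31.3% of 99, were the 4 genes above 20%.

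Summed over the genes, methylation was lower near the start, but this held in only 5 of the 8 genes with reads within 250 bp of it. Sycp3, at 49% of 102 reads within 250 bp and 37.3% of 268 reads farther out, Sycp2, at 39.5% of 38 and 35% of 120, and Syce1, at 13.3% of 15 and 9.57% of 94, had the opposite order. Over the 9 genes, reads from 250 to 1 bp before the start were at 19.8% in old libraries and 41.1% in young libraries, on 91 and 185 reads. In the 250 bp from the start on they were at 20% and 24.1%, on 10 and 58 reads, and from 750 bp on at 64.8% in old and 46.9% in young libraries, on 145 and 177 reads. The order of the ages therefore turned within the window. The genes that gave these reads differed between libraries. Within 250 bp of the start Sycp1 had 24.4% of 45 reads methylated in old and 51.4% of 35 in young libraries. Those old reads were all from old replicate 2, over 9 CpGs. Sycp3 had 19.2% of 26 reads methylated in old and 59.2% of 76 in young libraries. Its old reads were 5 or 6 per CpG, so from 1 library at each. Hormad1, Smc1b and Dmc1 had no old reads within this distance.

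**Figure D3:**
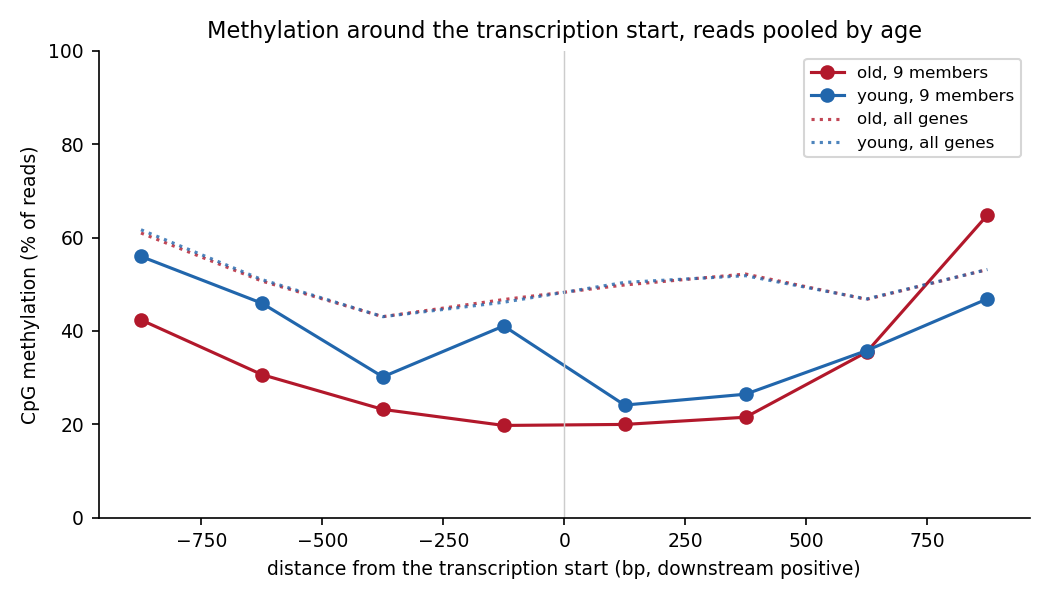
CpG methylation by distance from the transcription start in steps of 250 bp, reads pooled by age (old red, young blue), for the 9 genes (solid) and for all genes with a start (dotted). The solid lines are lowest near the start and cross downstream, where old reads are at 64.8% and young reads at 46.9% in the last step; each solid point rests on 10 to 185 reads.

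The question of the study was which regions differ in methylation between old and young sperm, and no start window of any gene passed the test. A window was tested when every library had at least 3 CpGs and 20 reads there, which held for 6821 windows and, of the 9 genes, only for Sycp3 and Hormad2. The quasi-binomial model, moderated across features as limma does, called 0% of the windows (adjusted p under 0.05 and a difference of 10 points or more). An unadjusted p under 0.05 was found in 276 windows, and limma, run on the log2 odds, called 0 and gave 282 such windows. Sycp3 averaged 35.2% ± 12.4 in old (SD, n = 2) and 47.1% ± 14.3 in young libraries (SD, n = 3). The difference was -11.9 points with a standard error of 10.5 and a 95% interval of -36.9 to 13.2 (quasi-binomial model, adjusted p = 1; limma also made no call). Hormad2 averaged 51.0% ± 7.02 in old (SD, n = 2) and 47.8% ± 17.3 in young libraries (SD, n = 3). The difference was 3.16 points with a standard error of 9.41 and an interval of -19.2 to 25.5 (quasi-binomial model, adjusted p = 1). Nearly all Hormad2 reads lay 250 to 1000 bp from the start, so this test does not describe its promoter. The p and standard errors of the model rest on reads pooled by age, not on these means. Pooled, Sycp3 was at 29.9% in old and 46.1% in young libraries, and Hormad2 at 50.4% and 43.6%. Neither unadjusted p was under 0.05 in either tool. In 0 of the 2 windows did the old libraries lie all above or all below the young ones, while over the tested windows they lay all above in 8.14% and all below in 8.88%. Sycp3 was lower in old libraries when any 1 library was left out, with a difference of -3.09 points without old replicate 1, -4.09 without young replicate 3 and -20.6 without old replicate 2. Neither interval excludes a difference as large as its bounds.

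Because libraries covered different CpGs, the reads were also summed by age over the CpGs listed in at least 1 library of each, a comparison added after seeing the data. Sycp3, with 15 such CpGs, was at 28.7% of 115 reads in old and 48.9% of 178 reads in young libraries. Hormad2, with 10, was at 55.6% of 189 reads in old and 43.6% of 172 reads in young libraries. Of the 8 genes with shared CpGs, old libraries were lower in 5 and higher in 3, so the genes had no common direction. Differences ran from -40 points in Smc1b, on 5 old and 8 young reads, to 27.2 points in Stag3, on 13 and 15 reads. These sums have no test over libraries.

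The bodies of the genes were highly methylated at both ages. Their pooled levels lay between 92.3% (Spo11) and 96.5% (Sycp3), with a median of 94.0%, and each was above the median of 91.7% over 31774 gene bodies with at least 20 reads. All 10 bodies were tested and 0 were called, with 0 at an unadjusted p under 0.05 in the quasi-binomial model and 0 in limma. Among all 25965 tested bodies the share called was 0%, with 716 at an unadjusted p under 0.05 in that model and, in limma, 0 called and 888 under 0.05. Old libraries were on average higher in 5 of the genes and lower in 5, with a median difference of 0.121 points, beside -0.00222 over all bodies. In no gene did the old libraries lie all above or all below the young ones, which held for 6.66% and 7.51% of all tested bodies.

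The body with the most reads was that of Hormad2, at 93.8% and 94.1% in old libraries against 95.1%, 95.6% and 92.4% in young libraries. Its difference was -0.395 points with a standard error of 0.960. Sycp1, the longest of the genes, was at 94.9% and 94.8% in old libraries against 96.0%, 96.1% and 93.6% in young libraries, and its difference of -0.380 points had the smallest standard error, 0.832, and an interval of -2.31 to 1.55. In both genes the old values lay inside the young range. The most positive difference was that of Stag3 and the most negative that of Spo11. Stag3 was at 95.8% and 92.8% in old libraries against 93.2%, 94.2% and 93.9% in young libraries, a difference of 0.571 points with a standard error of 1.12. Spo11 was at 94.2% and 89.3% in old libraries, on 206 and 338 reads, against 94.8%, 95.9% and 91.8% in young libraries, on 173, 74 and 245 reads. Its difference of -2.43 points had a standard error of 2.87 and an interval of -9.10 to 4.23, the widest of the 10, and it was -0.0187 without old replicate 2 and -4.84 without old replicate 1. Syce1, with the next widest, differed by 0.268 points with a standard error of 2.66. Every interval of the 10 contained 0.

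The remaining bodies showed the same narrow ranges. Sycp2 was at 94.2% and 93.3% in old libraries against 93.8%, 95.9% and 91.7% in young libraries, a difference of -0.0256 points with a standard error of 1.26. With reads pooled by age the order of Sycp2 turned, at 93.7% in old and 93.4% in young libraries. Sycp3, the most methylated body, was at 97.5% and 96.2% in old libraries against 96.5%, 97.4% and 95.4% in young libraries, a difference of 0.432 points with a standard error of 1.39. Hormad1 was at 92.7% and 94.9% in old libraries against 92.2%, 94.5% and 93.9% in young libraries, a difference of 0.272 points with a standard error of 1.33. Both old values lay within the young range in Sycp2, and the old libraries held the highest value in Sycp3 and in Hormad1. Smc1b was at 93.6% and 93.8% in old libraries against 93.4%, 96.2% and 93.4% in young libraries, a difference of -0.676 points with a standard error of 1.05, and only young replicate 2 stood apart. Syce1 was at 92.7% and 97.1% in old libraries, on 164 and 204 reads, against 95.2%, 95.5% and 93.0% in young libraries, on 126, 134 and 187 reads, so the old libraries were its lowest and its highest. Dmc1 was at 93.5% and 94.3% in old libraries against 93.6%, 94.8% and 91.7% in young libraries, a difference of 0.559 points with a standard error of 1.31.

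The libraries ranked alike across several of these bodies. Young replicate 2 was the highest library in 6 of 10 genes and young replicate 3 the lowest in 5 of 10, with medians over the genes of 95.7% and 93.2%. The old replicates stood between them, at medians of 94.0% and 94.2%. Over all gene bodies summed, young replicate 2 was likewise the highest, at 90.8%, and young replicate 3 the lowest, at 89.1%. The range of the young libraries was larger than the size of the mean age difference in each of the 10 bodies. The bodies of Sycp1, Sycp2, Hormad2 and Dmc1 were all highest in young replicate 2 and lowest in young replicate 3.

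**Figure D4:**
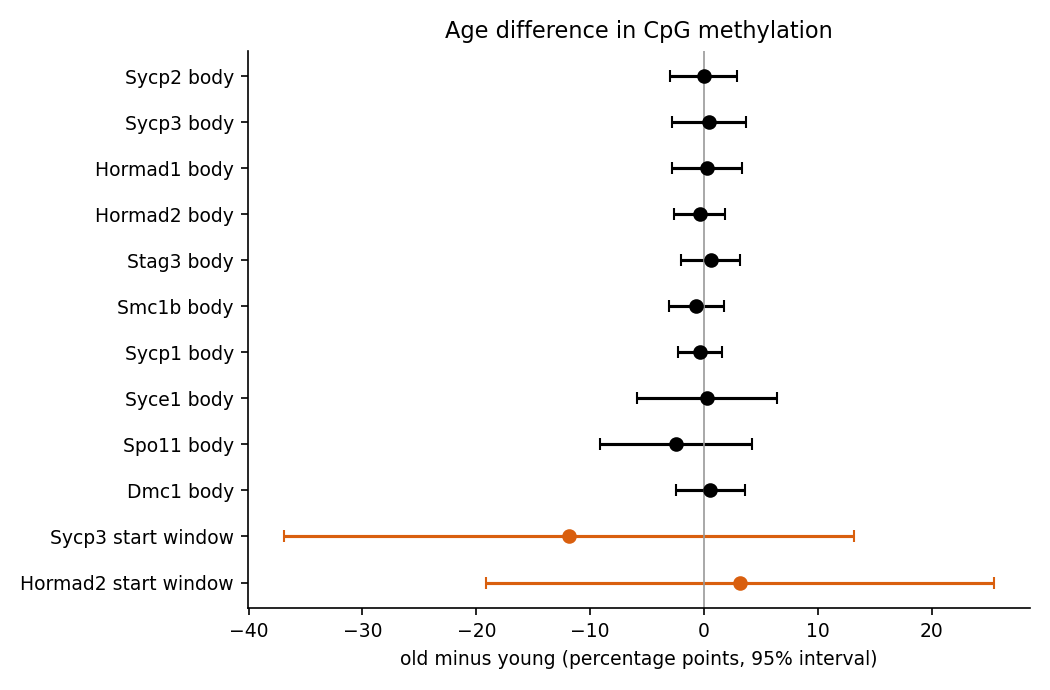
Old minus young difference in methylation (percentage points) for the 10 bodies (black) and the 2 tested start windows (orange). Points are differences of library means, and the 95% intervals use the standard errors of the quasi-binomial model. Body differences lie between -2.43 and 0.571 points, the intervals of the starts are several times wider, and all contain 0.

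Tiles of 1000 bp showed high levels along the genes away from their starts. Of the tiles that the 10 genes touch, 92 had enough reads in every library, and only 1 of them overlapped a start window. Of the 92 tiles 27 were in Hormad2, 25 in Sycp1, 11 in Sycp2, 10 in Smc1b and 0 in Spo11. The mean levels of the 92 tiles had a median of 95.6%. Only 1 was below 80%, a tile overlapping the start window of Hormad2 (chr11:4440001-4441000). It was at 47.7% and 54.0% in old libraries against 67.3%, 30.6% and 52.0% in young libraries. This tile lies downstream of the start, at position 4441082, and does not contain it. The lowest tile after it was in Dmc1, at 83.0%. None of the 92 tiles was called, and none had an unadjusted p under 0.05 in the quasi-binomial model. Of all 392712 tested tiles 0% were called, while 14513 were under 0.05 before adjustment, and limma called 0 with 16548 under 0.05. The old libraries lay all above the young ones in 9 of the 92 tiles, 9.78%, and all below in 4, 4.35%, and over all tiles these shares were 8.86% and 8.34%.

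The tiles with the smallest p in each direction are given as values, since none passed. Higher in old sperm were 3 tiles of Hormad2. The first (chr11:4421001-4422000) was at 94.5% and 91.3% in old libraries against 80%, 88.6% and 81.5% in young libraries, a difference of 9.55 points with a standard error of 5.03. The next (chr11:4356001-4357000) was at 95.5% and 92.4% in old libraries against 95.7%, 77.3% and 73.8% in young libraries, so there the groups overlapped. The third (chr11:4387001-4388000) averaged 94.2% in old and 88.2% in young libraries. Lower in old sperm was a tile of Smc1b (chr15:85097001-85098000), at 84.4% and 97.4% in old libraries against 97.3%, 100% and 100% in young libraries, where old replicate 2 overlapped the young ones. A tile of Sycp1 (chr3:102929001-102930000) was at 92.5% and 90.7% in old libraries against 96.9%, 95.9% and 96.9% in young libraries, a difference of -4.99 points with a standard error of 2.55. The last, again in Hormad2 (chr11:4358001-4359000), averaged 97.0% in old and 98.7% in young libraries. Their unadjusted p lay between 0.0627 and 0.125, and each adjusted p was 1 in the quasi-binomial model. Hormad2 thus held tiles of both directions.

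**Figure D5:**
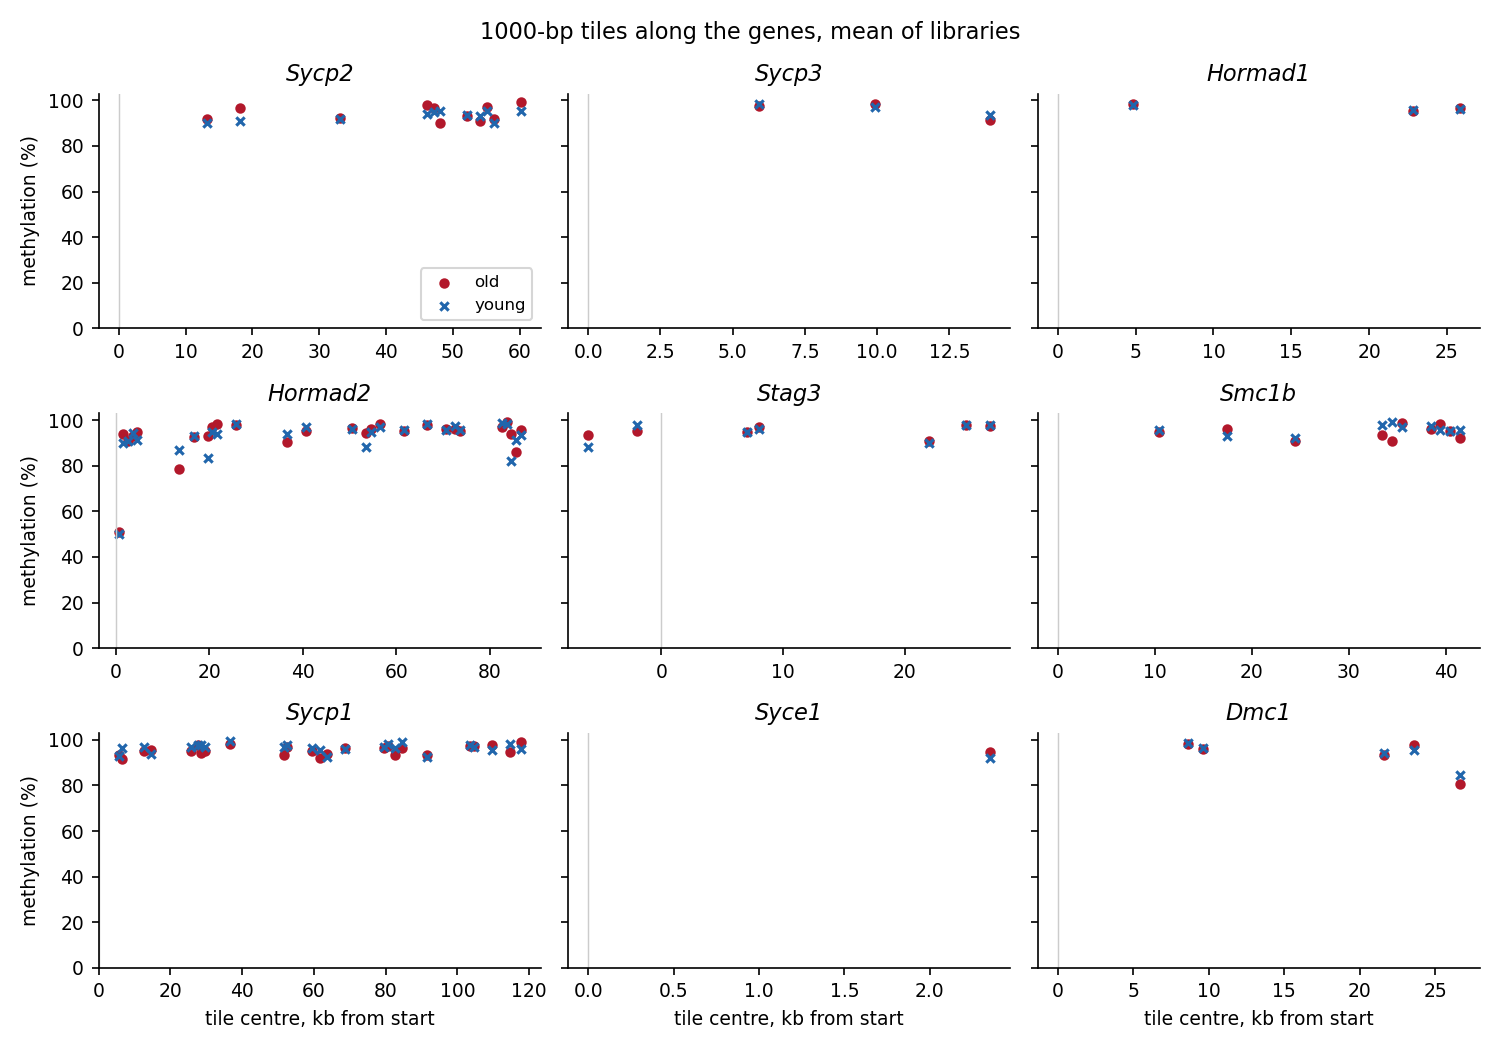
Mean methylation (percent) of 1000-bp tiles in old (red dots) and young libraries (blue crosses) against the distance of the tile's centre from the transcription start, in kb; Spo11 had no tile with enough reads. All but the tile overlapping the start window of Hormad2, at 50.9% in old and 50% in young libraries, average 83.0% or more over the 5 libraries.

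Other genes of meiotic prophase, a list of 30, were measured in the same way. Of these, 25 had an annotated start, 10 start windows and 29 bodies were tested, and 0 were called by the quasi-binomial model or by limma. An unadjusted p under 0.05 in that model was found in 1 of these starts and 0 of these bodies, beside 4.05% and 2.76% over all genes. Start levels over all libraries had a median of 36.5%, close to the 36.1% of the axis and synapsis genes, and 17 of 23 with reads were under 50%. The lowest were Prdm9, whose methyltransferase marks the sites of breaks, at 3.73%, the cohesin gene Smc1a at 5.48%, and the repair gene Brca2 at 12%. The highest were Mei1 at 86.0%, the meiotic kleisin gene Rad21l at 85.5%, and Msh4, which stabilises crossover intermediates, at 60.2%. The starts nearest to the median of the 9 genes, by the mean absolute difference over 5 libraries, were Mei4, needed for break formation, at 6.07 points, Hsf2bp at 7.18 points and Mnd1 at 8.80 points. Mei4 was at 23.9% and 31.0% in old libraries against 42.6%, 40% and 16% in young libraries, and the groups overlapped.

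The start with that p was Iho1, named after its values were seen. Iho1, which binds Hormad1 on unsynapsed axes and is needed for break formation, was at 88.0% and 73.7% in old libraries, on 25 and 57 reads, against 35.8%, 28.4% and 40.2% in young libraries, on 53, 67 and 82 reads. The groups did not overlap, and old libraries lay all above young ones in 8.14% of the tested windows. The difference was 46.0 points with a standard error of 7.89, and it did not pass over all windows (quasi-binomial model, adjusted p = 0.871). The window had 4 and 9 listed CpGs in old libraries and 9, 13 and 12 in young libraries. No sum over CpGs listed in both ages is given for it. The body of Iho1 averaged 95.4% ± 0.115 in old (SD, n = 2) and 93.7% ± 1.76 in young libraries (SD, n = 3). In the other tested starts of the list old libraries were higher in 3 and lower in 6.

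Starts that mark other cells were read beside these values. Starts of maternally imprinted genes are unmethylated in sperm and methylated on 1 of the 2 alleles in somatic cells, and 7 of the 9 listed had an annotated start with reads. They summed to 22.8% and 20.9% in old libraries against 19.2%, 10.2% and 29.3% in young libraries, and by gene they ranged from 17.3% (Nnat) to 62.7% (Mest). The start windows of the 9 axis, synapsis and recombination genes summed to 35.7% and 35.9% in old libraries against 38.6%, 32.1% and 48.4% in young libraries. In both sums young replicate 2 was the lowest and young replicate 3 the highest. The medians over the axis, synapsis and recombination genes with reads had these 2 libraries in the opposite order. They were 40% in young replicate 2, on 7 genes, and 34.2% in young replicate 3, on 8 genes. Nnat, which holds most of the imprinted reads, was at 18.3% and 18.6% in old libraries against 14.7%, 9.41% and 24.9% in young libraries. Starts of all genes varied less, at 51.3% and 50.1% in old libraries against 48.7%, 51.4% and 52.5% in young libraries. These windows surround annotated starts and were not set on imprint control regions, and the part of other cells in the start levels was not tested. Starts of epididymal epithelium genes summed to 87.9% and 87.5% in old libraries against 85.6%, 90.1% and 76.8% in young libraries, on 64 to 111 reads. Those of leukocyte genes summed to 83.1% and 82.8% in old libraries against 88.7%, 80.6% and 88.4% in young libraries, on 36 to 204 reads. Each list had 4 genes with a start, and not every gene had reads in every library. By gene they ranged from 82.1% to 90.9% and from 64.6% (Cd3e) to 94.2%. Cd3e was at 40% of 5 reads in young replicate 2.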

How the data were processed

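Genomic DNA of C57BL/6 sperm was bisulfite-sequenced in 5 libraries. The submitters' processing notes name Bismark 0.16.3, methylKit 1.4.0 and Trim Galore 0.4.3, with the mm10 (GRCm38) build, per the labels. Settings, like any removal of duplicate reads, were not given in the sources used here. In the authors' files each cytosine and strand has, per the file headers, its coverage as a count of reads, and the percent of C and of T among them. The lowest coverage is 5 in each file. Incomplete conversion reads as methylation here, and a C-to-T variant as its absence.

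Methylated reads were recovered as percent times coverage, the strands of a CpG were summed, and reads were summed over start windows, bodies and 1000-bp tiles. Coverage summed over listed cytosines was 67774094 to 97769462 per library, and 1 read can cover several cytosines. Features with at least 3 CpGs and 20 reads in every library were tested across the genome, old against young, with a quasi-binomial model of methylated and unmethylated reads. The dispersion was shrunk across features by the squeezeVar method of limma with a floor of 1, and p-values were adjusted by Benjamini-Hochberg over all features of a kind. Features with an adjusted p under 0.05 that differed by 10 points or more were called. Differences are of mean library levels. Their standard errors and p come from reads pooled by age with the moderated dispersion. The intervals are thus centred on the difference of means, not on the pooled difference that the p tests. limma 3.58.1 in R 4.3.3 on log2((methylated + 1)/(unmethylated + 1)) was the alternative. The remaining work was done with scipy 1.17.1, pandas 2.3.3, numpy 2.4.6 and matplotlib 3.10.9 under Python 3.11.15, and the test was checked on simulated data. Starts, strands and promoters came from RefSeq tables of GRCm38.p6.

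The genes, lists and tests were chosen with earlier results of these data known. All 10 genes are named. Of the other prophase genes those with the 3 lowest and 3 highest start levels, and the 3 nearest to the median of the 9 genes, are named, and of the tiles the 3 with the smallest p in each direction. Alternatives changed the coverage minimum and upper limit, the CpGs used, the filter, the window, the weighting, the tool, the replicate block and each library. Unplaced sequences, 2.77% to 3.85% of reads, were not used.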

Additional observations from a re-analysis of the deposited data

How the results depend on the processing

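No start window, body or tile of the 10 genes was called under any alternative. Over all features, 0 start windows were called under each alternative, and 1 call arose in each of the other kinds. Tafa5 was the 1 body called at CpGs with 10 or more reads (79.4% in old and 93.2% in young libraries, adjusted p = 0.0379 in the quasi-binomial model). With the upper coverage limit 1 tile, outside any gene (chr6:131362001-131363000), was called, at 60.8% in old and 91.6% in young libraries. Both were seen after the values, and the cause was not tested. The signs of the small differences were not stable. Hormad2's start was at -1.90 points with CpGs weighted equally. At CpGs with 10 or more reads the bodies of Sycp2, Hormad1 and Dmc1 turned to 0.298, -2.64 and -0.254 points, while with CpGs weighted equally that of Hormad1 was at 3.997 points. At CpGs listed in all 5 libraries those of Sycp2, Hormad2 and Dmc1 turned to 0.628, 0.297 and -0.686 points. With 1 library left out, Hormad2's start ran from -5.46 to 11.8 points and Sycp3's from -20.6 to -3.09. The bodies ran from -1.21 to 0.0532 points in Sycp1, -1.06 to 1.02 in Sycp2, -0.202 to 1.07 in Sycp3, -1.92 to 2.46 in Syce1, -0.849 to 1.39 in Hormad1, -1.37 to 0.211 in Hormad2, -0.909 to 2.05 in Stag3, -1.16 to 0.256 in Smc1b, -0.273 to 1.27 in Dmc1 and -4.84 to -0.0187 in Spo11. Some unadjusted p of the quasi-binomial model depended on 1 young library. Without young replicate 1 that of Sycp3's start was 0.0336, at -18.1 points. Without young replicate 3 those of the bodies of Sycp1 and Hormad2 were 0.0419 and 0.0434. Where 1 old library is left, its spread is taken from the young libraries. Deviations from the group means were nearly uncorrelated between libraries of the same number (-0.0176 and -0.0104 over gene bodies). Whether the numbers stand for pairs or batches cannot be told from this, since the deviations of the 2 old libraries are mirror images. With the number as a block, 0 features of each kind were called, with 159 start windows, 996 bodies and 696 tiles at an unadjusted p under 0.05, and the bodies of Syce1 and Dmc1 turned to -0.422 and -0.266 points. The levels of the genes were compared once per gene and alternative. Of these comparisons 6 start values moved by more than the spread between libraries of that gene, and 80 did not. Of the body values 8 moved and 81 did not. Windows of 500 bp gave 4 of the 6 start values that moved. Smc1b went from 53.3% to 6.67% there but was not counted, because its own libraries spread from 6.67% to 95%. Of the 9 start windows 7 had too few reads or CpGs in some library to be tested.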
